A study of Xenopus laevis with 16 samples.

Results

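FGF8 caps were set against Xnr2 caps, 1 library each, to see which genes both mesoderm-inducing ligands raise in competent ectoderm and which differ between them. An animal cap is the ectoderm over the roof of the Xenopus laevis blastula, which forms epidermis when left alone. The deposited sheets of these 2 libraries were joined by transcript ID. Of 43646 transcripts in the full table of the series, 14893 were listed in both sheets, 824 in the Xnr2 sheet only and 316 in the FGF8 sheet only. The series holds 16 libraries.

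FGF8 is a secreted fibroblast growth factor. It binds receptor tyrosine kinases, which act through the MAP kinase cascade, and cells answer by transcribing feedback inhibitors such as sprouty proteins and dual-specificity phosphatases. Xnr2, encoded by nodal2, is a Nodal ligand of the TGF-beta family. Nodal signals through Smad2 with the partner FoxH1, is antagonised by Lefty and Cerberus, and is known for inducing mesoderm and endoderm at the blastula stage. FGF signalling is known to maintain mesoderm downstream of Nodal in the frog embryo, and fgf8 is itself transcribed in early mesoderm.

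FGF8 caps came from embryos given 200 pg of FGF8 mRNA in early cleavage, and Xnr2 caps from embryos given 200 pg of Xnr2 mRNA at the same time. Control 4, a library of uninjected caps, is the control that the labels pair with both, so every value over control 4 shares that library. Controls 1 to 3 were uninjected caps of other sets. Dissociated 1 to 3 were caps taken apart into single cells, and they enter only the estimate of the spread. All caps were cut at stage 9 and collected at stage 12 from the Nasco strain, and the labels do not say how many embryos were pooled. The file headers call each set with its control an independent experiment, without saying whether sets are separate clutches, so adjusted p-values measure the spread between these libraries, part of which may be technical.

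Values are RPKM, reads scaled by transcript length and mapped depth, as the authors deposited them. The recovered depth was 42260599 reads for FGF8, 30054289 for Xnr2 and 36659593 for control 4, and 26580374 to 46522450 over controls 1 to 3 and dissociated 1 to 3. A direct ratio is log2 of (FGF8 RPKM + 1) over (Xnr2 RPKM + 1), so it is negative where Xnr2 is higher, and adding 1 understates the ratio of low genes. A transcript was called higher in 1 library where that ratio was at least 4-fold, a log2 ratio of 2, and the library with more of it had 5 RPKM or more. "Raised" and "lowered" mean the same rule applied over control 4. "Rose" and "fell" are kept for limma calls, an adjusted p under 0.05 against controls 1 to 4 over 14012 transcripts. The 1-against-1 ratios have no replicate check.

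Markers matched the tissue in part. Epidermal keratin krt.S had 1798 RPKM in FGF8 caps and 386 in Xnr2 caps, against 2399 in control 4. The epidermal regulator grhl3.L had 112 RPKM in FGF8 caps, 76.7 in Xnr2 caps and 345 in control 4. Endoderm markers went both ways. The transcript sox17b.1.L had 1.3 RPKM in FGF8 caps and 8.35 in Xnr2 caps, against 0.976 in control 4. GATA5 (Xelaev18046225m) was highest in control 4, at 11.3 RPKM, against 0.581 in FGF8 caps and 1.03 in Xnr2 caps. Of the germ plasm markers of vegetal cells, dazl.L was at 2.71 RPKM in FGF8 caps, 3.96 in Xnr2 caps and 2.94 in control 4. The marker ddx25.L had the reverse order, at 4.91 RPKM in FGF8 caps, 2.48 in Xnr2 caps and 3.27 in control 4. The germ plasm gene ddx4.L differed little, at 55.8 RPKM in FGF8 caps, 53.6 in Xnr2 caps and 59.1 in control 4. Control 1 stood apart from the other controls in ectoderm genes. On the log2(RPKM + 1) scale the mean of its ciliated cell and ionocyte list was 2.31, and those of controls 2 to 4 were 4.19 to 4.89.

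Xnr2 moved more transcripts than FGF8, and most of what FGF8 raised was also raised by Xnr2. In the direct ratio 68 transcripts (0.457% of 14893) were higher in FGF8 caps and 153 (1.03%) were higher in Xnr2 caps, while the median over all transcripts was 0.09. The values nearest the threshold were 2.00 inside and 1.97 outside on the FGF8 side. FGF8 raised 91 transcripts over control 4 (0.611%) and lowered 63 (0.423%). Xnr2 raised 279 (1.87%) and lowered 230 (1.54%). The medians over control 4 were -0.11 for FGF8 and -0.15 for Xnr2, and changes over control 4 are read against those shifts. For scale, pairs among controls 2 to 4 differed by 4-fold or more at 0.771% to 1.03% of 14012 transcripts. Pairs with control 1 did so at 2.16% to 4.62%, and FGF8 and Xnr2 caps at 1.38% of the same transcripts. Each control pair crosses control sets, while FGF8 and Xnr2 caps share set 4, so the scale is not like for like.

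Of the 91 transcripts raised by FGF8, 82 were raised by Xnr2 too (0.551% of 14893), and these are called shared. Both the 91 and the 82 include fgf8.L, whose level in FGF8 caps may include injected mRNA. Of the 82, 72 had the higher level in Xnr2 caps and 30 were called higher there, while 0 were called higher in FGF8 caps. A further 100 transcripts (0.671%) were Xnr2-specific, meaning raised by Xnr2 and at least 4-fold above FGF8. HES1 (Xelaev18019219m) was the single FGF8-specific transcript. The other 105 lay in between, raised by 1 ligand with a direct ratio under 4-fold, and FGF8 was the raising ligand for 8 of them.

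Of the 68 transcripts higher in FGF8 caps, Xnr2 lowered 59 below control 4, and 60 lay within 4-fold of control 4 in FGF8 caps. Of the 153 higher in Xnr2 caps, Xnr2 raised 130, FGF8 also raised 30, and FGF8 lowered 4.

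**Figure D1:**
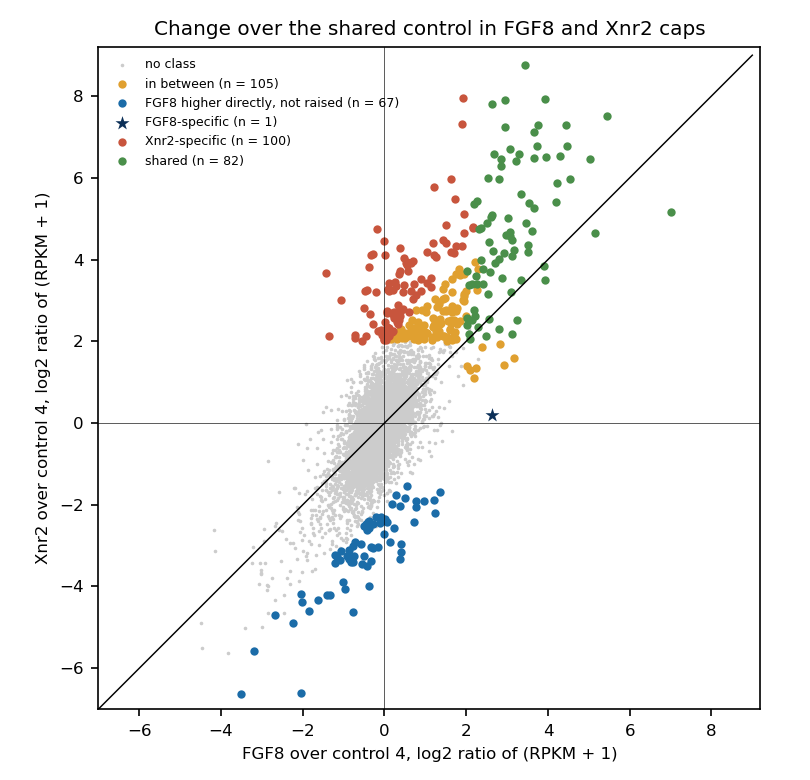
Each point is 1 transcript listed in both sheets, with its log2 ratio of (RPKM + 1) over control 4 in FGF8 caps on the x axis and in Xnr2 caps on the y axis. The 82 shared transcripts lie at the upper right, mostly above the line of equal change, the 67 transcripts higher in FGF8 caps but not raised by FGF8 lie at the lower left to lower middle, and HES1 is the star. Both axes use the same control 4 library, so scatter along the line is not independent evidence.

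In limma's fit against controls 1 to 4, 19 transcripts rose in FGF8 caps (0.136% of 14012) and 0 fell (0.0%), with 502 transcripts at an unadjusted p under 0.05 in either direction. Leaving out control 2 gave 8 that rose, leaving out control 3 gave 12 and leaving out control 4 gave 50, while 6 fell when control 1 or control 4 was left out. In Xnr2 caps 150 rose (1.07%) and 32 fell (0.228%). Leaving out 1 library at a time gave 89 (without control 3) to 194 (without control 1) that rose, and 10 (without control 3) to 121 (without control 1) that fell. All 19 that rose in FGF8 caps also rose in Xnr2 caps. Of the 75 shared transcripts that could be tested, 17 rose in FGF8 caps and 56 in Xnr2 caps. Of the 90 testable Xnr2-specific transcripts, 0 rose in FGF8 caps and 51 rose in Xnr2 caps. The classes were set from the same FGF8, Xnr2 and control 4 libraries, so these counts by class follow in part from that choice. They are not an independent check of the classes. The 19 and the 17 that rose in FGF8 caps include fgf8.L, whose level there may include injected mRNA. Both contrasts also share the same controls and the same spread, so the overlap of their calls is in part built in. The lone injected library is assumed to vary like the control and dissociated libraries. With the control set as a replicate block, 1 transcript rose in FGF8 caps and 64 rose and 12 fell in Xnr2 caps, so the FGF8 calls below other than fgf8.L are lost with that block.

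The difference between the ligands was tested in the same fit as an alternative to the fold rule. It called 6 transcripts, all higher in Xnr2 caps (0.0428% of 14012), and 0 higher in FGF8 caps (0.0%). They were t.S, cdx2.S, wnt8a.S, TBX6 (Xelaev18007613m), ARHGAP24 (Xetrov90015528m.L) and XDH (LOC100497499-like.S). A total of 330 had an unadjusted p under 0.05, voom on recovered reads called 0 higher in FGF8 caps and 5 higher in Xnr2 caps, and the fit with the replicate block called 0 in either direction.

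Among the ligands, fgf8.L had 170 RPKM in FGF8 caps and 46.8 in Xnr2 caps, against 0.300, 0.198, 0.120 and 0.332 in controls 1 to 4. The FGF8 value includes whatever injected mRNA matches this transcript, so it checks the label but does not measure the endogenous gene. In Xnr2 caps, where no FGF8 mRNA was injected, fgf8.L rose by 5.28 ± 0.307 on the log2 scale (SE, limma adjusted p = 8.6e-05). The other copy, fgf8.S, had 57.4 RPKM in Xnr2 caps and 0.50 in control 4 and was not listed for FGF8 caps. Sheets list a transcript only where the mean of the injected library and control 4 is at least 1 RPKM, so its FGF8 value was below 1.5 RPKM. The ligands fgf20.L, fgf16.L and fgf3.S were likewise listed for Xnr2 caps only, at 22.8, 19.0 and 5.39 RPKM. Of 39 fgf ligand transcripts in any table, 2 were in both sheets, fgf8.L and fgf2.L, with 0 called higher in either library by the direct rule.

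Receptors were split. The 8 fgf receptor and adaptor transcripts in both sheets had a median direct ratio of 0.61 and 0 calls either way. The transcript fgfr4.S, a receptor of the cap ectoderm, had 46.2 RPKM in FGF8 caps and 12.5 in Xnr2 caps, against 84.3, 85.7, 82.4 and 107 in controls 1 to 4. Both injected libraries lay below all 4 controls, and fgfr4.S fell in Xnr2 caps (-2.74 ± 0.294, SE, limma adjusted p = 0.00249) and had an adjusted p of 0.969 in FGF8 caps (-0.93 ± 0.294). The receptor fgfr1.S had 16.8 RPKM in FGF8 caps, 28.1 in Xnr2 caps and 3.51 to 5.85 in controls, and rose in Xnr2 caps (2.28 ± 0.38, limma adjusted p = 0.0264). The docking adaptor frs2.L stayed within the control range, at 29.7 RPKM in FGF8 caps and 21.3 in Xnr2 caps against 19.8 to 42.3.

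Of 26 FGF-MAP kinase feedback transcripts FGF8 raised 11 and Xnr2 raised 20, with 11 shared, and 22 had the higher level in Xnr2 caps. In the direct ratio 0 were called higher in FGF8 caps and 4 higher in Xnr2 caps, with a median of -0.97. Over all 14893 transcripts the direct rule called 0.457% higher in FGF8 caps and 1.03% higher in Xnr2 caps. FGF8 raised 0.611% of them and Xnr2 raised 1.87%. All list counts here and below stand against these shares, and limma list counts against the limma shares given above. The lists were chosen with earlier results of these data known. Over the 25 transcripts listed in all libraries, the mean on the log2(RPKM + 1) scale was 4.10 in FGF8 caps and 5.14 in Xnr2 caps, against 2.34 to 2.72 in the controls. By limma, 2 of 25 rose in FGF8 caps and 11 of 25 in Xnr2 caps.

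The sprouty genes, which encode inhibitors of receptor tyrosine kinase signalling, show this order. The level of spry2.L was 20.1 RPKM in FGF8 caps and 44.2 in Xnr2 caps, against 2.1, 0.509, 1.09 and 0.746 in controls 1 to 4. The level of spry4.L was 9.29 RPKM in FGF8 caps and 30.5 in Xnr2 caps, against 0.0956, 0.166, 0.236 and 0.299 in controls 1 to 4. Neither overlapped the controls. The copy spry4.S was listed for Xnr2 caps only, at 10.0 RPKM, and lay below 2 RPKM in FGF8 caps. The rise of spry4.L was called in FGF8 caps (3.1 ± 0.30, SE, limma adjusted p = 0.00974) and in Xnr2 caps (4.72 ± 0.30, adjusted p = 0.000106), whereas for spry2.L it was called in Xnr2 caps (adjusted p = 0.0147) with an adjusted p of 0.192 in FGF8 caps.

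The MAP kinase phosphatase transcript dusp6.S was one of the few with the higher level in FGF8 caps, at 37.6 RPKM against 28.8 in Xnr2 caps and 3.38 to 9.46 in controls. Its direct ratio of 0.37 is under the fold rule, and the limma adjusted p was 0.225 in FGF8 caps and 0.127 in Xnr2 caps. The copy dusp6.L went the other way, at 13.9 RPKM in FGF8 caps and 20.7 in Xnr2 caps, against 2.67 to 5.14 in controls. IL17RD (Xelaev18001778m), the human symbol of a membrane inhibitor of FGF signalling, was nearly level, at 29.9 RPKM in FGF8 caps and 33.7 in Xnr2 caps, against 1.34 to 4.51 in controls. A second model, IL17RD (Xelaev18003043m), was not level, at 26.7 RPKM in FGF8 caps and 59.7 in Xnr2 caps, against 4.75 to 12.9 in controls. The immediate-early genes differed more. The transcript egr1.L had 2.87 RPKM in FGF8 caps and 30.9 in Xnr2 caps, against 0.274, 3.63, 0.292 and 0.429 in controls 1 to 4. Its FGF8 value lay within the control range. The copy egr1.S had 4.06 RPKM in FGF8 caps and 29.5 in Xnr2 caps, against 0.135 to 3.41 in controls. For that copy the FGF8 value lay above all 4 controls. The transcript fos.S had 2.68 RPKM in FGF8 caps and 34.9 in Xnr2 caps, against 1.86 to 14.1 in controls. Immediate-early genes also vary with handling of tissue, and that part was not tested: in dissociated caps fos.S had 4.10, 23.7 and 25.6 RPKM.

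**Figure D2:**
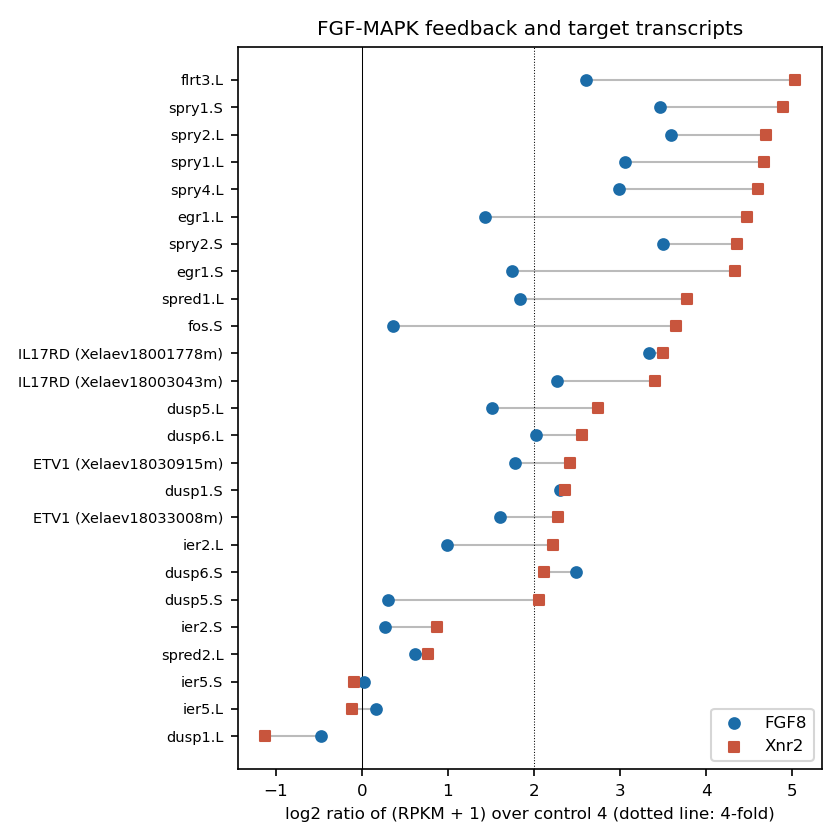
Log2 ratios of (RPKM + 1) over control 4 for the 25 FGF-MAP kinase feedback and target transcripts drawn, with FGF8 as circles and Xnr2 as squares and the 4-fold rule as a dotted line. The Xnr2 square lies to the right for most transcripts, dusp1.L, dusp6.S, ier5.L and ier5.S are the reverse, and egr1 and fos.S show the widest gaps.

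Of 42 Nodal ligand and antagonist transcripts in any table, 6 were in the Xnr2 sheet only and 6 were in both sheets, with 0 called higher in either library and a median direct ratio of 0.46. The antagonist lefty.L had 2.76 RPKM in FGF8 caps and 7.61 in Xnr2 caps, against 0.303, 0.352, 0.234 and 0.859 in controls 1 to 4, and rose in Xnr2 caps (2.60 ± 0.493, SE, limma adjusted p = 0.0468), a call that held in 6 of 13 alternatives. The injected gene was low: nodal2.L had 3.29 RPKM in Xnr2 caps and 0.0374 in control 4, and injected and endogenous copies cannot be told apart. The TGF-beta ligand gdf3.S had 143 RPKM in Xnr2 caps and 0.880 in control 4, and below 1.12 in FGF8 caps. The co-receptor transcript tdgf1.3.L was similar in both, at 114 RPKM in FGF8 caps and 85.1 in Xnr2 caps, against 57 in control 4.

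Mix-type homeobox genes, direct targets of Nodal signalling, were listed for Xnr2 caps only. The transcript mix1.L, named here after its value was seen, had 23.8 RPKM in Xnr2 caps, was at 0 in control 4, and lay below 2.0 RPKM in FGF8 caps. The T-box gene eomes.L, active in early mesendoderm, had 16.1 RPKM in FGF8 caps and 38.6 in Xnr2 caps, against 0.494 to 1.60 in controls. It rose in Xnr2 caps (4.37 ± 0.45, SE, limma adjusted p = 0.00218) and just missed the call in FGF8 caps (3.15 ± 0.45, adjusted p = 0.0509). Of the 6 transcripts of the Nodal target list in both sheets, 0 were called higher in FGF8 caps and 1 higher in Xnr2 caps.

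The T-box gene t.S (brachyury), which mesoderm needs to form posterior and notochord tissue, had 12.4 RPKM in FGF8 caps and 538 in Xnr2 caps, against 0.095, 0.223, 0.545 and 0.245 in controls 1 to 4. Both injected libraries lay above all controls. The counting interval of the direct log2 ratio without the added 1 ran from -5.52 to -5.36 (95%, exact binomial, counting error only). It rose in FGF8 caps (3.41 ± 0.33, SE, limma adjusted p = 0.00974) and in Xnr2 caps (8.73 ± 0.33, adjusted p = 1.52e-05).

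The copy t.L had 332 RPKM in Xnr2 caps and was not listed for FGF8 caps, so it lay below 1.80 RPKM there. How reads were divided between the L and S copies is not given in the sources used here, so a difference between copies is uncertain. TBX6 (Xelaev18007613m), a model whose human match is a T-box regulator of paraxial mesoderm, had 5.61 RPKM in FGF8 caps and 432 in Xnr2 caps, against 2.07, 0.598, 2.33 and 0.749 in controls 1 to 4. A second model, TBX6 (Xelaev18010507m), had 24.3 RPKM in FGF8 caps, 402 in Xnr2 caps and 0.454 to 3.67 in controls. Both rose in Xnr2 caps (limma adjusted p = 0.000187 and 0.000347), and in FGF8 caps their adjusted p was 0.969 and 0.11. Of 13 pan-mesoderm transcripts in both sheets, 0 were called higher in FGF8 caps and 6 higher in Xnr2 caps, with a median of -1.99. Among them is fgf8.L, so the mean and counts of this list in FGF8 caps, by limma too, may include injected mRNA. By limma 4 of 12 rose in FGF8 caps and 8 of 12 in Xnr2 caps.

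The Wnt ligand wnt8a.L, made in ventral and lateral mesoderm, was closer between the ligands than t.S was. It had 37.0 RPKM in FGF8 caps and 101 in Xnr2 caps, against 0.107, 0.240, 0.463 and 0.168 in controls 1 to 4. It rose in FGF8 caps (4.94 ± 0.36, SE, limma adjusted p = 0.0023) and in Xnr2 caps (6.37 ± 0.36, adjusted p = 7.66e-05). The copy wnt8a.S had 5.42 RPKM in FGF8 caps and 94.7 in Xnr2 caps. In contrast wnt11b.L, a Wnt ligand of gastrulation movements, was Xnr2-specific, at 10.2 RPKM in FGF8 caps and 264 in Xnr2 caps, against 6.94, 2.58, 2.83 and 3.86 in controls 1 to 4. It rose in Xnr2 caps (limma adjusted p = 0.00208, and 0.0818 with the replicate block).

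**Figure D3:**
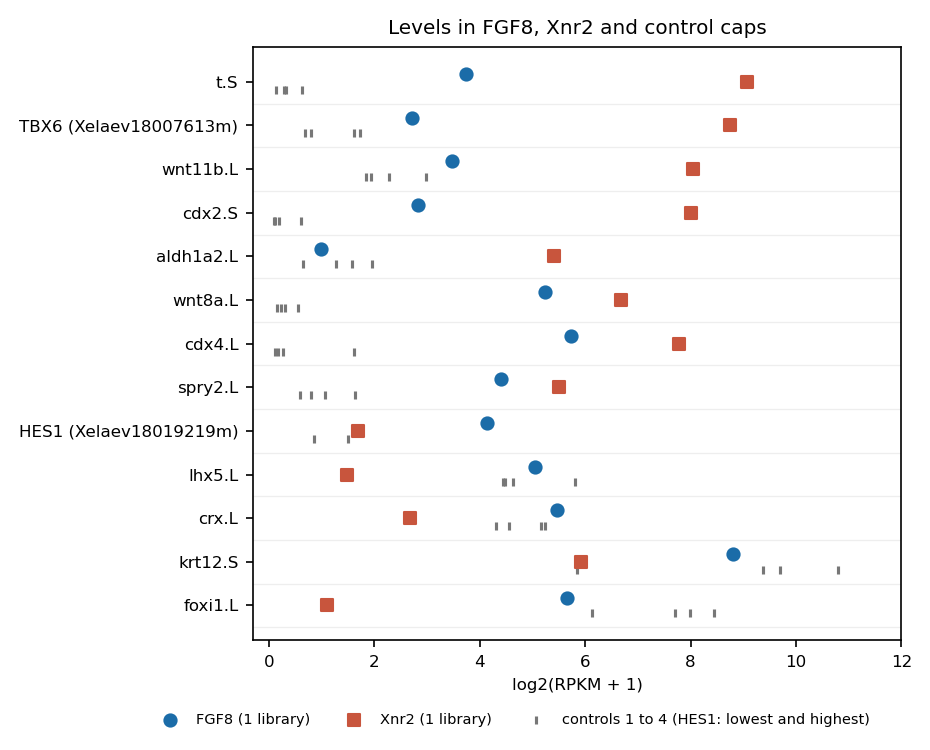
Levels of 13 transcripts on the log2(RPKM + 1) scale, with FGF8 as a circle, Xnr2 as a square and controls 1 to 4 as ticks, except HES1, for which the lowest and highest control are drawn. The upper genes are higher in Xnr2 caps, HES1 is higher in FGF8 caps, and for lhx5.L, crx.L and foxi1.L the Xnr2 square lies left of every control tick.

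The posterior axis list holds caudal, Hox and other homeobox genes and also wnt5b, sp5 and SALL genes. All 17 of its transcripts in both sheets had the higher level in Xnr2 caps, 10 were called higher there and 0 higher in FGF8 caps, and the median direct ratio was -2.40. FGF8 raised 11 of them and Xnr2 raised 15. By limma 6 of 16 rose in FGF8 caps and 15 of 16 in Xnr2 caps. The caudal gene cdx4.L had 51.8 RPKM in FGF8 caps and 218 in Xnr2 caps, against 0.120, 0.0896, 2.07 and 0.209 in controls 1 to 4. It rose in FGF8 caps (5.18 ± 0.558, SE, limma adjusted p = 0.013) and in Xnr2 caps (7.23 ± 0.558, adjusted p = 0.000334).

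Other caudal genes were further apart. The transcript cdx2.S had 6.12 RPKM in FGF8 caps and 257 in Xnr2 caps, against 0.0841, 0.0627, 0.520 and 0.148 in controls 1 to 4, and cdx1.S had 9.16 RPKM in FGF8 caps, 316 in Xnr2 caps and 0.131 to 1.94 in controls. The copy cdx1.L was listed for Xnr2 caps only, at 6.69 RPKM, and lay below 2 RPKM in FGF8 caps. The Hox gene hoxd1.S had 13.0 RPKM in FGF8 caps and 116 in Xnr2 caps, against 0.0662 to 0.439 in controls. Later Hox genes were listed for Xnr2 caps only. Examples named after their values were seen are hoxb4.S at 25.5 RPKM and hoxc6.S at 24.8 RPKM in Xnr2 caps, each below 2 RPKM in FGF8 caps. The list of Wnt targets and antagonists holds many of the same cdx transcripts. Of its 18 members 1 was called higher in FGF8 caps and 7 higher in Xnr2 caps.

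Xnr2-specific genes included regulators of later mesoderm. The enzyme of retinoic acid synthesis aldh1a2.L had 0.991 RPKM in FGF8 caps and 41.8 in Xnr2 caps, against 2.90, 0.558, 1.98 and 1.43 in controls 1 to 4. FGF8 caps lay within the control range and Xnr2 caps above it, where it rose (4.05 ± 0.467, SE, limma adjusted p = 0.0036). The copy aldh1a2.S had 1.74 RPKM in FGF8 caps and 27.9 in Xnr2 caps. The retinoic acid receptor rara.S had 4.27 RPKM in FGF8 caps, 31.5 in Xnr2 caps and 3.15 to 9.26 in controls, with a limma adjusted p of 0.112 in Xnr2 caps. Of 15 retinoid transcripts 0 were called higher in FGF8 caps and 3 higher in Xnr2 caps.

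The neurotrophin receptor ngfr.S had 16.0 RPKM in FGF8 caps and 346 in Xnr2 caps, against 4.59, 3.11, 4.95 and 4.54 in controls 1 to 4. ARHGAP24 (Xetrov90015528m.L), the human symbol of a GTPase-activating protein, had 5.27 RPKM in FGF8 caps, 267 in Xnr2 caps and 0.268 to 0.867 in controls. HES7 (Xelaev18019216m), whose human match is a hairy-related repressor of the segmentation clock in mouse, had 9.98 RPKM in FGF8 caps, 214 in Xnr2 caps and 0.409 to 0.895 in controls. By the fold rule HES7 was shared, since FGF8 raised it too, with a log2 ratio of 2.96 over control 4. All 3 rose in Xnr2 caps by limma (adjusted p = 0.00882, 1.52e-05 and 0.00218), and none of the 3 rose in FGF8 caps (adjusted p = 0.969, 0.0937 and 0.696). The Xnr2 calls of ngfr.S and HES7 each held in 13 of 14 alternatives, and that of ARHGAP24 held in 14 of 14. SERPINH1 (Xelaev18016415m), a collagen chaperone in human, had 0.556 RPKM in FGF8 caps, 52.1 in Xnr2 caps and 0.932 to 3.72 in controls. It was not called in Xnr2 caps by limma.

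The myogenic factors myod1.S and myf5.L and the presomitic gene msgn1.L were listed for Xnr2 caps only. The level of myod1.S was 309 RPKM in Xnr2 caps and 0.261 in control 4, and lay below 1.74 RPKM in FGF8 caps. The level of myf5.L was 203 RPKM in Xnr2 caps and 0 in control 4, and that of msgn1.L was 163 RPKM in Xnr2 caps and 0 in control 4. These transcripts are in the sheet because Xnr2 was high, so their number supports nothing and no test of them is given. A limma fit that admits them, chosen after the data were seen, called 545 that rose (3.69% of 14769) and 66 that fell (0.447%), and nothing is read from those counts, since the sheet admitted these transcripts through their Xnr2 level.

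Of the 15 paraxial mesoderm and muscle transcripts in both sheets, 0 were called higher in FGF8 caps and 6 higher in Xnr2 caps, with a median of -1.82. The Xnr2 sheet alone held 30 more. Of all 824 transcripts in that sheet alone, Xnr2 raised 198 (24.0%). Of the 824, 106 (12.9%) were raised and at least 4-fold over the largest value FGF8 caps can have had. In the FGF8 sheet alone 1 of 316 (0.316%) was raised, the proneural gene neurog1.L. Each sheet admitted such transcripts through its own injected library, so nothing is read from these counts. The level of neurog1.L was 7.06 RPKM in FGF8 caps, against 0.0479, 0, 0.0148 and 0.225 in controls 1 to 4, and below 1.775 RPKM in Xnr2 caps.

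Organizer genes were uneven. CHRD (Xelaev18029538m), the human symbol of the BMP antagonist Chordin, had 169 RPKM in Xnr2 caps and 0.286 in control 4, and below 1.71 RPKM in FGF8 caps. The forkhead gene foxa4.L, of notochord and floor plate, had 7.64 RPKM in FGF8 caps and 107 in Xnr2 caps, against 0.0185 to 0.165 in controls, and rose in Xnr2 caps (6.67 ± 0.825, SE, limma adjusted p = 0.00515, and 0.0549 with the replicate block). The copy foxa4.S was listed for Xnr2 caps only, at 31.3 RPKM, and lay below 2 RPKM in FGF8 caps. Of 16 organizer transcripts in both sheets 7 were called higher in FGF8 caps and 2 higher in Xnr2 caps. Those 7 are mostly head homeobox genes that the list shares with the anterior neural list. Of 13 endoderm transcripts, 0 were called higher in FGF8 caps and 6 higher in Xnr2 caps, and 4 of the 6 were cdx2.L, cdx2.S, foxa4.L and pnhd.S, which are also active in mesoderm; the others were a2m.S and the endoderm regulator sox17b.1.L.

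Of 32 pan-neural transcripts in both sheets, FGF8 raised 11 and Xnr2 raised 7, all 7 of them shared, and by limma 2 of 23 rose in FGF8 caps and 3 of 23 in Xnr2 caps. The SoxB1 genes, which mark neural precursors, were raised by FGF8 and within 4-fold of control 4 in Xnr2 caps. They are named after their values were seen. The transcript sox3.S had 405 RPKM in FGF8 caps and 135 in Xnr2 caps, against 44.0 in control 4. The transcript sox2.S had 98.4 RPKM in FGF8 caps and 67.4 in Xnr2 caps, against 18 in control 4. Neither has a read under its name in the table of controls 1 to 3 and the dissociated caps, so no test could be made; whether the table counts them under another name was not tested, and this is not evidence of absence. The forkhead gene foxd4l1.1.L, of immature neural ectoderm, went the other way, at 24.9 RPKM in FGF8 caps and 121 in Xnr2 caps, against 0.322 in control 4. In the direct ratio 1 of the 32 was called higher in FGF8 caps and 2 higher in Xnr2 caps, with a median of 0.51. The Notch ligand dll1.L was 1 of those 2, at 16.1 RPKM in FGF8 caps, 78.7 in Xnr2 caps and 11.4 to 73.5 in controls.

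HES1 (Xelaev18019219m), the human symbol of a hairy-related repressor, had 16.7 RPKM in FGF8 caps and 2.25 in Xnr2 caps, against 0.807 to 1.84 over the 4 controls. It is named because it was the single FGF8-specific transcript, and limma did not call it. Hairy-related genes also stood among the 10 transcripts lowered in FGF8 caps alone, named after their values were seen. The transcript hes3.3.S had 4.12 RPKM in FGF8 caps and 23.2 in Xnr2 caps, against 42.4 in control 4, and hes3.3.L had 1.24 RPKM in FGF8 caps and 9.98 in Xnr2 caps, against 12.5 in control 4.

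On average anterior neural genes lay within the control range in FGF8 caps and below it in Xnr2 caps. Of 10 transcripts 7 were called higher in FGF8 caps and 0 higher in Xnr2 caps, all 10 had the higher level in FGF8 caps, and the median was 2.93. By limma 0 of 10 fell in FGF8 caps and 2 of 10 in Xnr2 caps. The mean log2(RPKM + 1) of the list was 3.80 in FGF8 caps and 1.23 in Xnr2 caps, and 3.58 to 4.06 in controls. The LIM homeobox gene lhx5.L, of the forebrain, had 31.9 RPKM in FGF8 caps and 1.78 in Xnr2 caps, against 55.3, 21.4, 20.8 and 23.7 in controls 1 to 4. It fell in Xnr2 caps (-3.37 ± 0.563, SE, limma adjusted p = 0.0268, and 0.118 with the replicate block), and its adjusted p in FGF8 caps was 0.976. In bulk libraries fewer cells of a type and less RNA per cell cannot be told apart.

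The homeobox gene crx.L had 43.4 RPKM in FGF8 caps and 5.37 in Xnr2 caps, against 34.8, 22.5, 18.7 and 36.5 in controls 1 to 4, and fell in Xnr2 caps (-2.14 ± 0.388, SE, limma adjusted p = 0.0387). That call held in 7 of 14 alternatives. The other copies were not called in Xnr2 caps, with a limma adjusted p of 0.107 for lhx5.S and 0.0557 for crx.S. OTX2 (Xelaev18041108m), the human symbol of a regulator of head identity, had 21.5 RPKM in FGF8 caps and 0.749 in Xnr2 caps, against 33.6, 5.54, 9.52 and 16.4 in controls 1 to 4, with an adjusted p of 0.121 in Xnr2 caps. HESX1 (Xelaev18001776m), an anterior neural plate homeobox gene, had 9.61 RPKM in FGF8 caps and 0.278 in Xnr2 caps, against 1.75 to 4.96 in controls. FGF8 lay above and Xnr2 below all 4 controls, and its adjusted p was 0.969 in FGF8 caps and 0.151 in Xnr2 caps.

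Epidermal genes were lower in Xnr2 caps than in FGF8 caps. Of 52 transcripts 17 were called higher in FGF8 caps and 1 higher in Xnr2 caps, with a median of 1.21. Xnr2 lowered 23 and FGF8 lowered 2, while limma called 0 of 44 in either contrast. The keratin krt12.S had 446 RPKM in FGF8 caps and 59.6 in Xnr2 caps, against 56.2, 1773, 829 and 659 in controls 1 to 4. Xnr2 caps lay within the control range only through control 1. GATA2 (Xelaev18025905m), a BMP-responsive regulator of ventral ectoderm, had 86.9 RPKM in FGF8 caps and 10.9 in Xnr2 caps, against 105 to 220 in controls, with a limma adjusted p of 0.378 in Xnr2 caps. Of 35 transcripts of the BMP target list 5 were called higher in FGF8 caps and 0 higher in Xnr2 caps.

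FGF8 lowered 14 of 27 ionocyte and multiciliated cell transcripts below control 4 and Xnr2 lowered 16, while by limma 0 of 25 fell in FGF8 caps and 4 of 25 in Xnr2 caps. In the direct ratio 3 were called higher in FGF8 caps and 0 higher in Xnr2 caps. The ionocyte regulator foxi1.L had 49.7 RPKM in FGF8 caps and 1.14 in Xnr2 caps, against 255, 68.9, 346 and 208 in controls 1 to 4. Both lay below all controls. It fell in Xnr2 caps (-6.47 ± 0.785, SE, limma adjusted p = 0.00489), and its adjusted p in FGF8 caps was 0.969 (-1.90 ± 0.785). The fall of foxi1.L in Xnr2 caps was called in 13 of 14 alternatives. The multiciliated cell gene ccno.L had 10.5 RPKM in FGF8 caps and 2.28 in Xnr2 caps, against 4.74 to 178 in controls. The regulator of motile cilia foxj1.S had 6.02 RPKM in FGF8 caps and 19.6 in Xnr2 caps, against 5.6 to 188 in controls. The control range of the whole list reached down to 2.31 through control 1. Over all 14012 transcripts, not this list alone, limma without control 1 called 6 that fell in FGF8 caps and 121 in Xnr2 caps.

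**Figure D4:**
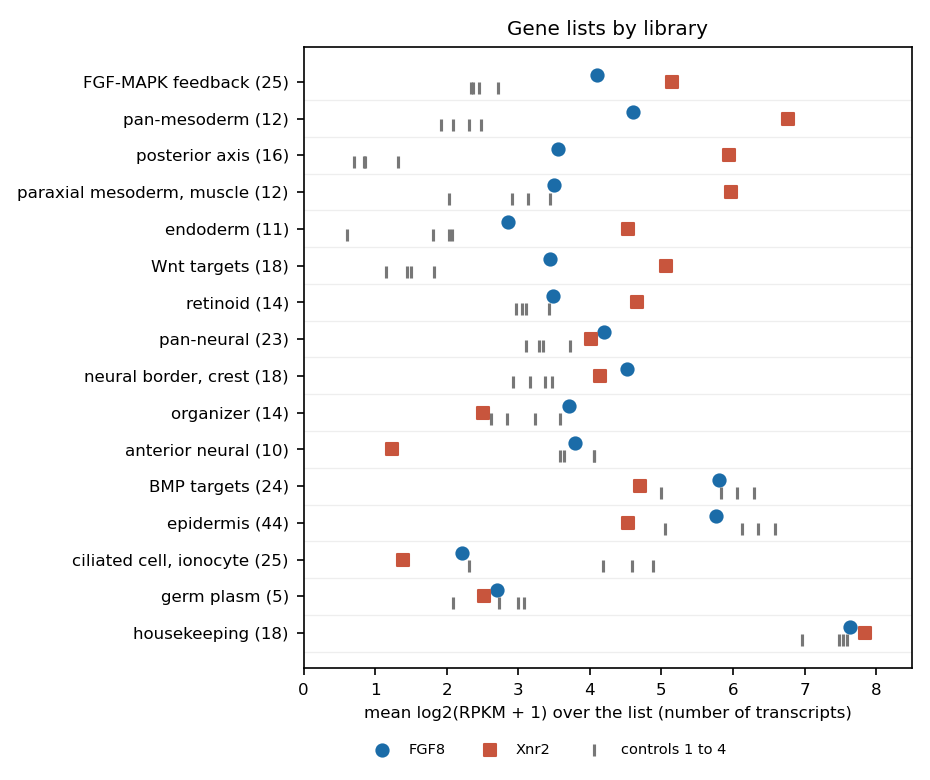
Mean log2(RPKM + 1) over the members of 16 lists that are in all libraries, with FGF8 as a circle, Xnr2 as a square and controls 1 to 4 as ticks, the number of transcripts in brackets. The pan-mesoderm list holds fgf8.L, so its mean in FGF8 caps may include injected mRNA. Lists at the top are highest in Xnr2 caps, the anterior neural list is lowest in Xnr2 caps at 1.23, and the ciliated cell and ionocyte list lies below every control in both injected libraries.

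The remaining lists are again given beside the shares over all 14893 transcripts, 0.457% called higher in FGF8 caps and 1.03% higher in Xnr2 caps. Of 20 neural crest and border transcripts 3 were called higher in FGF8 caps and 0 higher in Xnr2 caps. Of 8 ventral blood and vessel transcripts 2 were called higher in FGF8 caps and 0 higher in Xnr2 caps. Of 55 adhesion and cell movement transcripts 3 were called higher in FGF8 caps and 12 higher in Xnr2 caps. Examples are snai1.S, a repressor of epithelial genes, at 4.92 RPKM in FGF8 caps and 87.9 in Xnr2 caps against 3.54 in control 4, and the chemokine cxcl12.S, at 14.8 RPKM in FGF8 caps and 0.0976 in Xnr2 caps against 3.27 to 25.9 in controls. Of 21 stress transcripts 1 was called higher in FGF8 caps, KLF2 (Xelaev18001123m), and 2 higher in Xnr2 caps, junb.L and HMOX1 (Xelaev18023541m). Of 6 germ plasm and 18 housekeeping transcripts 0 were called in either direction.

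The L and S copies of a gene share ancestry and sequence, so they are not independent. Of 3136 pairs with both copies in both sheets, 23 had both copies called, all 23 in the same direction, 13 higher in FGF8 caps and 10 higher in Xnr2 caps. In 53 pairs 1 copy was called, and in 48 of these the other copy lay on the same side of 0.

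Other libraries of the series were read for the same transcripts, each a single library. The dorsal over ventral log2 ratio, from embryo parts cut at stage 10 and collected at stage 12, had a median of -0.27 over 62 transcripts higher in FGF8 caps, 0.18 over 88 Xnr2-specific transcripts and -0.18 over 75 shared transcripts, against -0.01 over the 12580 others. The quartiles of the 62 were -1.21 and 1.32, so they lay on both sides. The head gene crx.L was dorsal, at 70.0 RPKM in the dorsal part and 2.79 in the ventral part, while t.S had 174 in the dorsal part and 275 in the ventral part. In caps injected with Wnt8 and Xnr2 together, t.S had 534 RPKM, and 95 of 100 Xnr2-specific transcripts had at least 5 RPKM. Over all transcripts listed there it was 9034 of 15563. The class itself required at least 5 RPKM in Xnr2 caps, and these caps also received Xnr2. The shares are therefore not a like comparison and nothing is read from them. That library was not used to choose the transcripts, but its control is again control 4.

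**Figure D5:**
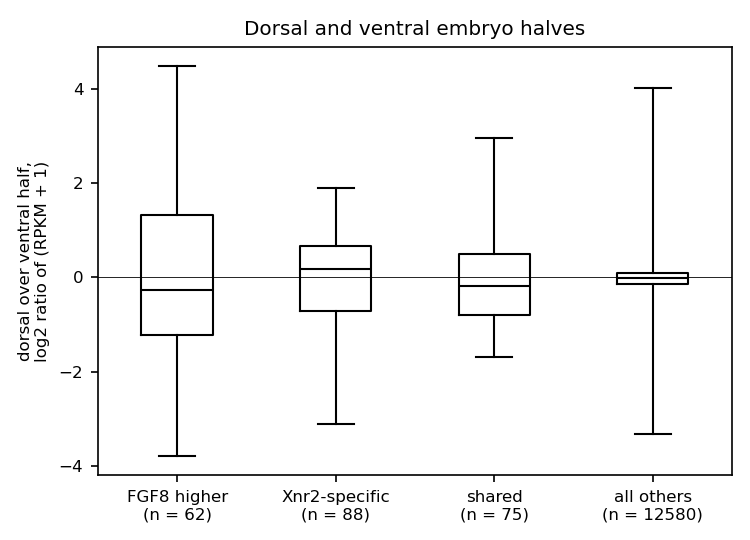
Dorsal over ventral log2 ratio of (RPKM + 1) for transcripts higher in FGF8 caps, Xnr2-specific transcripts, shared transcripts and all others, 1 library each side. Boxes span the quartiles with the median as a line and whiskers reach the lowest and highest value; the box of transcripts higher in FGF8 caps is the widest, from -1.21 to 1.32.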

How the data were processed

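RNA-seq of 100-bp single-end reads was made from polyadenylated RNA on an Illumina HiSeq instrument, per the labels' protocols. RPKM values were computed by the authors on the JGI 9.1 genome, per the file headers. TopHat2 2.09 and DESeq are named in the submitters' processing notes, and which step each served is not given in the sources used here. In the sheets of control set 4 the authors removed transcripts averaging below 1 RPKM over the injected library and control 4, per the file headers. Transcripts keep the names of the files, and for numbered models the human symbol deposited beside the number is given.

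Ratios were computed on log2(RPKM + 1) in Python 3.11.15. Tests used limma 3.58.1 in R 4.3.3 with its trend option, and p-values were adjusted over 14012 transcripts by the Benjamini-Hochberg method. The spread came from controls 1 to 4 and dissociated 1 to 3, and 881 transcripts in both sheets without a read in the full table were not tested. Whole reads were recovered from RPKM to within 0.01 reads, more at high counts, for 99.31% of FGF8 values, 98.61% of Xnr2 values and 99.28% of control 4 values, and were used for counting intervals and for voom. The code was tested on simulated data. Labels name the control set of each control and dissociated library, and same-set libraries deviated together (correlations 0.587, 0.395 and 0.614 for sets 1 to 3), so the control set was also fitted as a replicate block.

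The 23 gene lists, the members and the classes were chosen with earlier results of these data known. Named genes are the 12 most extreme called transcripts on each side, the 10 shared transcripts with the largest smaller change, the 10 highest of each single sheet, the FGF and Nodal list members of at least 5 RPKM, and up to 4 members of each other list by direct ratio, with both copies. Others are said to be named after their values were seen, markers were set apart, and 1 gene that the rule picks is not reported here. Coordinates and sequences are left out, since a genome of the build was not used here. Alternatives were other pseudocounts, minimums, scalings, fold rules, summed copies, left-out libraries, the block and voom.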

Additional observations from a re-analysis of the deposited data

Results flagged for a closer look

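In the controls, 1 of 4 libraries stood far from the other 3 in 4 of the results reported: its gap to the nearest other control took up 0.899 of the whole range for the mean of the Nodal target list, 0.834 for that of the housekeeping list, 0.867 for lhx5.L and 0.899 for cdx4.L, all on the log2(RPKM + 1) scale. Chance gives about 1 such case in 20 groups. The screen took in most of the 23 list means and most of the named extreme and shared transcripts, so a few such cases would arise by chance. For the Nodal target list control 1 was the low library, at 0.80 against 1.67 to 1.77 in controls 2 to 4, and for the housekeeping list it was control 1 at 6.96 against 7.49 to 7.59. For lhx5.L control 1 was the high library at 55.3 RPKM, and for cdx4.L control 3 was the high one at 2.07 RPKM. FGF8 and Xnr2 caps lay above all 4 controls in cdx4.L, in the Nodal target list and in the housekeeping list. The housekeeping mean was 7.64 in FGF8 caps and 7.84 in Xnr2 caps. A list mean above every control was thus also seen in a reference list, which limits how such means can be read.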

How the results depend on the processing

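No direction reversed among named transcripts that were called, or among lists with a median direct log2 ratio of at least 2 in size. Other lists and named transcripts were not checked for a change of sign, and counts have no direction. Of the counts, 76 stayed within 1.5 times the reported value and 44 moved. A pseudocount of 0.1 gave 2 FGF8-specific transcripts, and limma then called 1 that rose in FGF8 caps and 93 in Xnr2 caps. A pseudocount of 5 gave 25 transcripts higher in FGF8 caps, 86 higher in Xnr2 caps, 30 shared and 0 FGF8-specific, and limma called 44 that rose in FGF8 caps and 229 that rose and 20 that fell in Xnr2 caps. A minimum of 20 RPKM left 39 higher in FGF8 caps, 39 shared and 0 FGF8-specific. The 2-fold rule gave 195 shared, 19 FGF8-specific and 318 Xnr2-specific transcripts, and the 8-fold rule 37, 0 and 48, with 63 in between. A mean of at least 5 RPKM left 6 that rose in FGF8 caps and 96 in Xnr2 caps, and quantile normalization gave 38 for FGF8. Voom called 24 that rose in FGF8 caps, and 188 that rose and 9 that fell in Xnr2 caps. With the control set as a replicate block, 1 rose in FGF8 caps, 64 rose and 12 fell in Xnr2 caps, and 0 differed directly in either direction, against 0 and 6 without it. The direct test called 1 and 63 with a pseudocount of 5, 0 and 17 after quantile normalization, and 0 and 0 with a pseudocount of 0.1 or a mean of at least 5 RPKM. The whole Xnr2 sheet, an alternative added after seeing the data, gave 545 and 66, but it adds transcripts listed only through their Xnr2 level, so these counts support nothing. Leaving out 1 library at a time gave 8 to 50 that rose in FGF8 caps, lowest without control 2 (8), then control 3 (12) and highest without control 4 (50), and 0 to 6 that fell, with 6 without control 1 and without control 4. For Xnr2 caps it gave 89 (without control 3) to 194 that rose, and 10 (without control 3) to 121 (without control 1) that fell, with 19 without control 2, 21 without dissociated 1 and 15 without dissociated 2. The causes were not tested.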

Other observations

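BMP4 caps, a library of control set 1, were read for the same transcripts. Its sheet listed 73 of the 82 shared and 69 of the 100 Xnr2-specific transcripts, and the rest have no BMP4 value. Of the 73, 61 had at least 5 RPKM after BMP4, and of the 69, 41 did. Over all transcripts listed there it was 9028 of 13746. Transcripts low in the controls may be listed there only through their BMP4 level, so these shares are not a like comparison and nothing is read from them. The level of t.S was 104 RPKM after BMP4, and that of TBX6 (Xelaev18007613m) was 90.5 RPKM. Pinhead, a secreted factor of early mesoderm, was shared in both copies: pnhd.S had 16.2 RPKM in FGF8 caps and 99.6 in Xnr2 caps, against 0.0475, 0.0826, 0.225 and 0.0992 in controls 1 to 4. The purine enzyme transcript pnp.L had 40.5 RPKM in FGF8 caps and 129 in Xnr2 caps, against 0.328, 0.455, 0.240 and 1.21 in controls 1 to 4. In the embryo parts pnp.L had 65.6 RPKM in the dorsal part and 7.60 in the ventral part, while pnhd.S had 51.9 in the dorsal part and 93.7 in the ventral part.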
